A study of Mus musculus with 3 samples.

Results

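Genes of voltage-gated ion channels and their close relatives were examined in mature medullary thymic epithelial cells (mTEC) of 3 mouse genotypes. The members were every gene with a probe set of its own whose symbol began with Kcn, Scn, Cacna1, Cacnb, Cacng or Cacna2d, apart from 1 gene that the rule left out, and 130 of 19936 genes met it. Each genotype had 1 library, made from cells sorted as EpCAM+, CD45-, Ly51low and MHC-II high from typically 3 pooled C57b/6 mice aged 6 weeks, and measured on an Affymetrix Mouse Gene 1-ST array. WT cells came from Sirt1fl/fl mice. Sirt1cKO cells came from Sirt1fl/fl mice that also carried Foxn1-Cre, which is active in thymic epithelium. AireKO cells came from Aire–/– mice, for which the labels name no Sirt1 allele. There are no replicates, so no value below has a standard deviation or a test, and each difference describes 2 libraries.

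Voltage-gated channels open when the membrane depolarises and let potassium, sodium or calcium cross it, which is how nerve and muscle cells fire. Each channel has pore subunits, which sense voltage and conduct, and auxiliary subunits, which set its gating and its delivery to the surface. Mature mTEC are not excitable cells, but they are known for transcribing genes of many peripheral tissues, in part under the control of Aire, so that developing T cells meet those self-antigens. Several channels are antibody targets in human autoimmune disease.

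The gene names take in more than voltage-gated channels. Pore subunits of voltage-gated channels accounted for 44 members and their auxiliary subunits for 43. The other 43 share the gene names but not the gating, and include inward rectifiers (Kcnj), 2-pore leak channels (Kcnk), calcium- or sodium-gated potassium channels, epithelial sodium channel subunits (Scnn), the splicing factor Scnm1, and 3 non-coding transcripts. Of the members, 123 had 1 probe set and 7 had several, of which the one with the highest mean was used. A further 3 probe sets that list several Scn genes together were not used.

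Levels are log2 intensities, and they were read against olfactory receptor (Olfr) genes, taken as a class that few cells outside the nose express. The line between signal and background was the 95th percentile of 1027 Olfr genes in each library, and it lay at 6.02 for WT, 6.89 for AireKO and 6.34 for Sirt1cKO. The AireKO line was thus 0.87 above the WT line, so a dim gene could pass in WT and not in AireKO with no change in its value. Brightness also depends on the probes, so the order of different genes by intensity is an order of signals and not of transcript numbers.

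Markers of mature mTEC were present in every library. Of 9 mature mTEC markers, 9 were above the line in all 3 libraries, with Epcam between 10.49 and 11.01 and Cd74 between 13.46 and 13.55. Not all of them were level. Krt5 stood at 11.52, 10.43 and 10.86 in WT, AireKO and Sirt1cKO, 2.12-fold lower in AireKO than in WT. Cd80 stood at 11.82, 12.58 and 12.18. Cd86 stood at 8.35, 9.05 and 7.97, 2.11-fold lower in Sirt1cKO than in AireKO. Thymocyte markers were dim but not all at background, with 5 of 8 above the line in all 3 libraries and Cd3e between 7.47 and 7.79. Neither targeted gene told the knockouts from WT. Aire stood at 11.97, 11.55 and 11.24 in WT, AireKO and Sirt1cKO, and Sirt1 at 11.40, 11.42 and 11.27. Whether their probes lie in the deleted exons is not known, and the description fields of the knockout libraries name each other's genotype, so AireKO and Sirt1cKO here mean the library labelled so by its title. Sex-linked genes differed between libraries, with Xist at 12.17, 6.75 and 11.46 in the same order and the Y-linked Eif2s3y at 4.23, 9.75 and 8.92. Both knockout libraries thus differed from WT in sex-linked signal, and Sirt1cKO held both genes above the line. H2-Ea stood at 5.60, 13.23 and 5.90. C57BL/6 mice are known not to express H2-Ea, so its value goes against the labelled strain in the AireKO library. Genotype cannot be told apart from these differences. In sorted bulk cells, fewer cells of a type and less RNA per cell cannot be told apart either.

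Channel genes were above background less often than genes at large in these cells. Of the 130 members, 82 were above the line in WT, 46 in AireKO and 67 in Sirt1cKO, or 63.1%, 35.4% and 51.5%. Among all genes the shares above the same lines were 72.7%, 56.1% and 67.1%. In all 3 libraries, 44 members (33.8%) were above the line, against 55.6% of all genes, and 47 members (36.2%) were above it in none, against 26.6%. Between these, 22 members (16.9%) passed in WT and Sirt1cKO but not in AireKO, against 11.0% of all genes. A further 15 members (11.5%) passed in WT alone, against 5.9% of all genes. The members nearest the line in AireKO were Kcnk4, at 6.86 just under it, and Kcnh1, at 6.90 just over it. In WT they were Kcnj12, at 5.93 just under, and Kcnj8, at 6.03 just over.

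**Figure D1:**
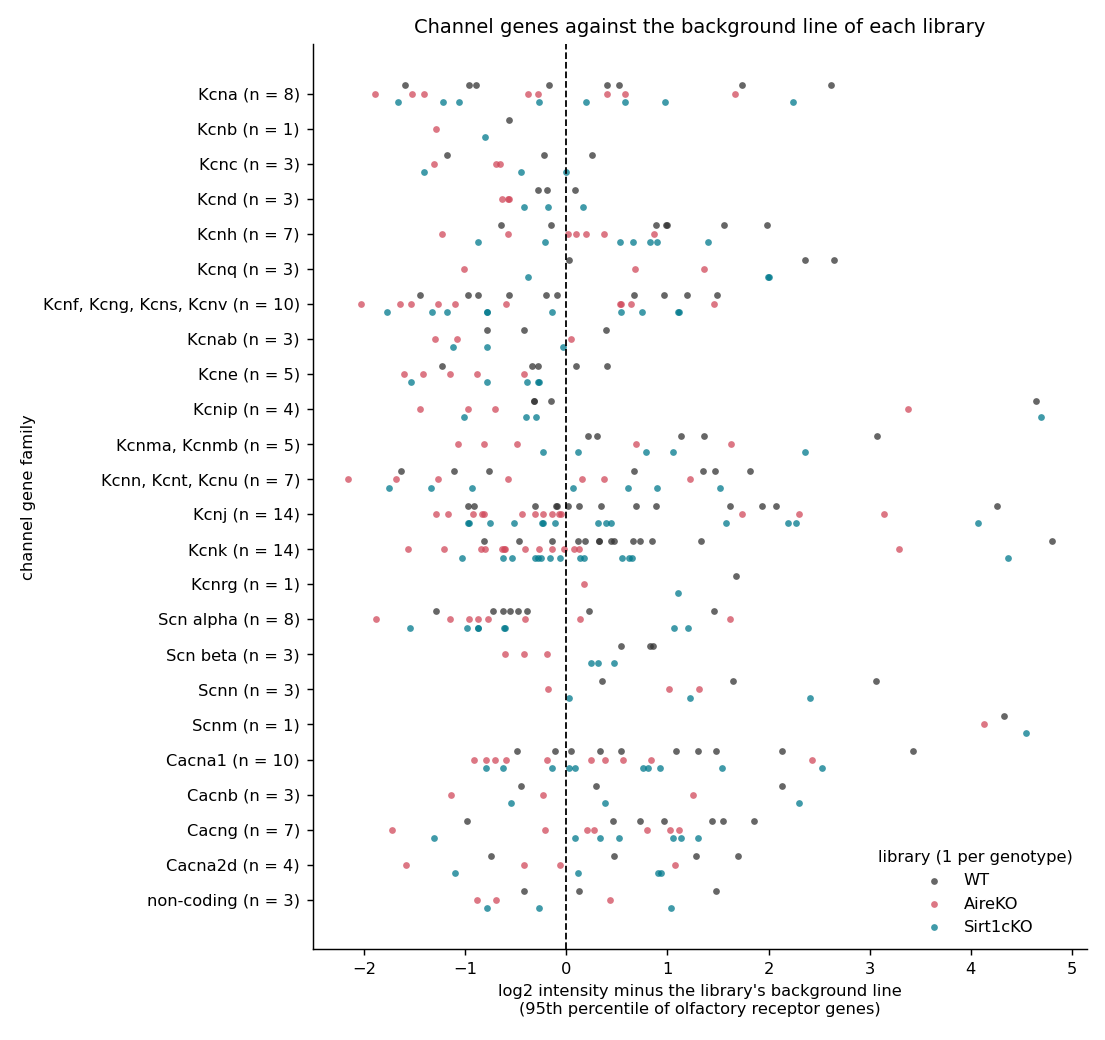
Each point is 1 of the 130 channel genes in 1 library, placed by its log2 intensity minus that library's background line (horizontal axis) and grouped by family (vertical axis); the dashed line at 0 is the 95th percentile of olfactory receptor genes. Most families straddle the line, and Kcnip3, Kcnk6, Kcnj15 and Scnm1 stand more than 3 log2 units above it in every library.

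The highest signals in all 3 libraries came from 4 members, none of which is a voltage-gated pore. Kcnip3 encodes a calcium-binding partner of Kv4 potassium channels that is also known as a transcriptional repressor, and it stood at 10.67, 10.27 and 11.04 in WT, AireKO and Sirt1cKO. Kcnk6, a 2-pore leak channel found in many epithelia, stood at 10.82, 10.18 and 10.71. Kcnj15, an inward rectifier of kidney and stomach epithelium, stood at 10.28, 10.03 and 10.41. All 3 genes were lowest in AireKO, by less than 2-fold. Scnm1, a zinc finger protein that acts in splicing, went the other way at 10.34, 11.02 and 10.89.

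Among potassium channel pores, the families were unevenly represented. Of the Shaker-type Kcna genes, 3 of 8 were above the line in all 3 libraries. Kcna2, a channel of axons, stood at 8.63, 8.55 and 8.58 in WT, AireKO and Sirt1cKO, which is nearly flat. Kcna3, the main voltage-gated potassium channel of T cells, stood at 7.76, 7.47 and 7.32, above the line in each library. The CD45- gate would remove T cells, although Ptprc, which encodes CD45, was itself above the line, at 7.77, 7.64 and 7.66, and the part of such cells in the Kcna3 signal was not tested. Kcna7, a gene of skeletal muscle, stood at 6.42, 7.29 and 6.92. Kcna4, Kcna5, Kcna6 and Kcna10 were within background in every library.

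The Kcnh genes, which include the cardiac repolarising channel, passed more often, with 5 of 7 above the line in all 3 libraries. Kcnh3, a channel of the forebrain, was at 7.74 or more in each library. Kcnh1 stood at 7.58, 6.90 and 7.24, and Kcnh2, mutated in long QT syndrome, was flat, with 7.08 as its highest value. None of the 5 differed by 2-fold in any comparison. By contrast 0 of 7 genes of the Kcnb, Kcnc and Kcnd families, which carry delayed rectifier and A-type currents of neurons and heart, passed in all 3 libraries. Their highest values were 6.51 for Kcnd3 in Sirt1cKO and 6.34 for Kcnc4 in the same library, at the line.

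Of the Kcnq genes, which carry slow potassium currents, Kcnq3 of neurons was flat at 8.38, 8.25 and 8.35. Kcnq1, which serves heart and secretory epithelium, stood at 8.66, 7.57 and 8.33, lowest in AireKO. The electrically silent subunits (Kcnf, Kcng, Kcns and Kcnv), which modify Kv2 channels, had 4 of 10 members above the line in all 3 libraries: Kcng1, Kcng2, Kcng3 and Kcns3. Their Kv2 pore partner on this list, Kcnb2, was within background, at 5.46, 5.60 and 5.54.

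Auxiliary potassium channel subunits were mostly at background. Among the Kcnip genes only Kcnip3 passed, and Kcnip1, Kcnip2 and Kcnip4 lay between 5.32 and 6.18 over all libraries. Of 5 Kcne genes, whose small proteins reshape Kcnq and Kcnh currents, 0 passed in all 3 libraries, and Kcne3, the epithelial partner of Kcnq1, stood at 6.12, 5.74 and 6.07. Of 3 Kcnab genes, Kcnab2 passed in WT and AireKO, at 6.41 and 6.93, and lay just under the line in Sirt1cKO, at 6.30.

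Channels gated by calcium, or by calcium with voltage, had a few clear signals. Kcnma1, the BK pore subunit, stood at 9.09, 8.52 and 8.71, although its second, dimmer probe set in WT was highest in AireKO, at 9.41. Its beta subunit Kcnmb1, typical of smooth muscle, stood at 7.15, 6.07 and 7.13, and only its AireKO value was within background. Since the AireKO line is high, the gene can be called no more than at least 1.20-fold lower there. Kcnn3 and Kcnn4, small and intermediate conductance channels, stood at 7.84, 8.11 and 7.86 and at 7.37, 7.04 and 6.95. Kcnu1, a sperm channel, was within background throughout.

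Inward rectifiers and leak channels, although not voltage-gated, held several of the brightest members. Beside Kcnj15, the G protein-gated Kcnj3 of heart and brain stood at 8.09, 9.19 and 8.62, and Kcnj13, of retinal pigment epithelium and choroid plexus, at 7.95, 8.63 and 8.54. Kcnj16, of kidney and other transporting epithelia, stood at 7.63, 6.58 and 7.92, within background in AireKO. Kcnj11, the pore of the beta cell ATP-sensitive channel, was near the line at 6.70, 6.81 and 6.78. Among Kcnk genes, 3 of 14 passed in all 3 libraries, Kcnk6, Kcnk3 and Kcnk1, while 11 of 14 passed in WT.

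Few sodium channel pores were detected. Of 8 Scn pore genes, 5 were within background in all 3 libraries: Scn1a, Scn3a and Scn8a of the brain and Scn10a and Scn11a of sensory neurons. Scn9a, the sodium channel of pain-sensing neurons, was the 1 gene above the line in every library, at 7.47, 8.51 and 7.41. Scn2a, a brain channel, was the 1 member of the whole set within background in WT and above the line in both knockouts, at 5.62, 7.02 and 7.54. The beta subunits Scn2b, Scn3b and Scn4b passed in WT and Sirt1cKO, between 6.56 and 6.88, and not in AireKO, between 6.28 and 6.69. The epithelial sodium channel, which is not gated by voltage, had its alpha subunit Scnn1a at 9.08, 7.90 and 8.75 and its gamma subunit Scnn1g at 7.67, 8.20 and 7.56.

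Calcium channel pores were detected more widely than sodium channel pores, but not more than genes at large. Of 10 Cacna1 pore genes, 5 were above the line in all 3 libraries, against 1 of 8 Scn pore genes. Among all genes the share was 55.6%. Cacna1b, the N-type channel of nerve terminals, stood at 9.45, 9.32 and 8.87. Cacna1a, the P/Q-type channel targeted by antibodies in Lambert-Eaton syndrome, stood at 8.15, 7.73 and 7.88. Cacna1e, Cacna1h and Cacna1d lay between 7.10 and 7.50 in every library, whereas the cardiac Cacna1c, at 6.35, 6.18 and 6.43, and the skeletal muscle Cacna1s, at 6.06, 6.29 and 6.20, were near the line, on one side of it or the other. Of the gamma genes, 5 of 7 passed in all 3 libraries, among them Cacng8 and Cacng2, which serve AMPA receptors more than calcium channels, and the muscle gene Cacng1, at 6.75, 7.16 and 6.86. Only 1 of 3 beta genes and 1 of 4 alpha2delta genes passed in all 3 libraries, and Cacnb2 and Cacna2d3 were within background throughout. The beta subunit Cacnb1 stood at 8.15, 8.14 and 8.64. The alpha2delta gene Cacna2d1, the site of action of gabapentin, stood at 7.30, 7.96 and 7.27.

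Against the tissues in which they are best known, the members gave a mixed picture. Of 32 brain channel genes, 10 were above the line in all 3 libraries and 17 in none, where 55.6% and 26.6% of all genes were. Of 13 channels of kidney and transporting epithelium, 7 passed in all 3 and 1, Kcne2, in none. Heart channels passed in all 3 in 3 of 10 cases, and channels of sensory neurons, retina and inner ear in 3 of 9. The short lists gave 1 of 3 for islet, 2 of 3 for lymphocyte and 0 of 1 for testis channels. Smooth muscle and pericyte channels passed in 2 of 5 cases and skeletal muscle channels in 3 of 4. The skeletal muscle markers beside them were detected in 5 of 8 cases, led by Actn3 at 10.65, 10.14 and 10.14, and 2 of 5 glia and neuron markers, Map2 and Mbp, were above the line in all 3 libraries. Map2 stood at 9.33, 9.29 and 10.06, and Tubb3 was within background throughout. Lists overlap in part, and these counts describe detection, not amount.

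Known or reported targets of autoimmunity were followed whatever their level. Kcnrg, a regulator of potassium channels that patients lacking AIRE make antibodies against when the lung is affected, stood at 7.69, 7.06 and 7.45 in WT, AireKO and Sirt1cKO. It was above the line in all 3 libraries and lower in AireKO than in WT, with a difference of -0.63, which is under 2-fold. The axonal channels Kcna1 and Kcna2, their relative Kcna6, the P/Q-type Cacna1a and the glial Kcnj10 were not called at 2-fold in any comparison. Kcna1, at 6.54, 6.61 and 6.54, and Kcnj10, at 6.36, 6.74 and 6.66, were within background in AireKO, and Kcna6 was within background throughout.

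The first comparison set the AireKO library against the WT library, from which it also differed in sex-linked and H2-Ea signal. A gene was counted at 2-fold or more, with a side within background put at the line. By this rule 2 of 130 members were lower in AireKO, or 1.54%, where 4.62% of all genes were lower. The count of higher members was 4, or 3.08%, where 1.53% of all genes and 2.53% of the Olfr genes were higher. Counted over genes above the line in 1 or both libraries, 2 of 83 members were lower and 4 higher, or 2.41% and 4.82%, against 6.33% and 2.1% of all such genes. All but 1 of these genes were above the line in both libraries.

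The lower genes were 2 channels of transporting epithelia. Scnn1a, the alpha subunit of the epithelial sodium channel, was 2.26-fold lower in AireKO than in WT, a difference of -1.18. Kcnq1 was 2.13-fold lower, a difference of -1.09. In both genes Sirt1cKO lay between the other libraries, with a difference from WT of -0.33. These calls depended on scaling, since Kcnq1 fell short of 2-fold after quantile normalization, loess and median centring, and Scnn1a after loess and median centring. Their differences over all these alternatives stayed negative, from -1.18 to -0.91 for Scnn1a and from -1.09 to -0.82 for Kcnq1. Nedd4l, the ubiquitin ligase that removes epithelial sodium channels from the surface, was also lower, at 8.20 in WT and 7.06 in AireKO.

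The higher genes were the potassium channel genes Kcng3 and Kcnj3 and the neuronal sodium channel pores Scn9a and Scn2a. Kcng3, a silent subunit, stood at 7.22 in WT and 8.35 in AireKO, which is 2.20-fold. Kcnj3 was 2.15-fold higher, and Scn9a 2.04-fold higher. The second probe set of Scn9a went the same way, from 6.94 in WT to 7.95 in AireKO. These 3 calls held under each other scaling, background line and choice of probe set that gave them a value. Their differences then ranged from 1.02 to 1.41, and the calls were lost with the knockout labels exchanged. Measured from the line of its own library, each gene differed much less. Kcng3 lay 1.20 over the line in WT and 1.465 in AireKO, Kcnj3 2.07 and 2.305, and Scn9a 1.46 and 1.62. The AireKO line stayed above the WT line under every scaling, so these alternatives do not bear on that offset. Scn2a, within background in WT, was at least 2.00-fold higher, at the threshold itself, and fell short of it after quantile normalization and loess. Kcna7 and Kcns3, with differences of 0.87 and 0.85, came next and joined them only after median centring, when 0 members were lower and 6 higher.

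The promoter windows of these 4 genes are shown because the genes were called in the same direction. Each is the RefSeq sequence from 250 bases before to 50 after a start site, 5′ to 3′, with every CpG dinucleotide in capitals, since CpG-rich promoters are typical of broadly used genes. The windows differ widely in CpG content. Kcng3 has 49 CpG, Kcnj3 10, Scn9a 9, and the windows of Scn2a 3 and 9. The GC box GGGCGG occurs, on either strand, in those of Kcng3 and Kcnj3, and the TATA box TATAAA in the second window of Scn2a.
Kcng3, GRCm38.p6 chr17:83631846-83632145, minus strand: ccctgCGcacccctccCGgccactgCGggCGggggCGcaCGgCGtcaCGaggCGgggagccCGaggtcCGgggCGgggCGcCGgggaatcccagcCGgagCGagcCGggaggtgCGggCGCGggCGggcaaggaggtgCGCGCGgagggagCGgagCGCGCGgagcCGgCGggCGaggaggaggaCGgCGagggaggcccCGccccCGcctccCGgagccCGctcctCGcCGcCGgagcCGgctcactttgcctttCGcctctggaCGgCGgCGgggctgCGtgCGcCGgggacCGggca
Kcnj3, GRCm38.p6 chr2:55435720-55436019, plus strand: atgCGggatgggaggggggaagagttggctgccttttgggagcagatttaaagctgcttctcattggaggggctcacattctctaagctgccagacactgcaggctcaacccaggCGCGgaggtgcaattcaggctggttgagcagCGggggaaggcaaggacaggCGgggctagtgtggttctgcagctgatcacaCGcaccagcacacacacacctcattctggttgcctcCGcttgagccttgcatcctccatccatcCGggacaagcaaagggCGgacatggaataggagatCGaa
Scn9a, GRCm38.p6 chr2:66634913-66635212, minus strand: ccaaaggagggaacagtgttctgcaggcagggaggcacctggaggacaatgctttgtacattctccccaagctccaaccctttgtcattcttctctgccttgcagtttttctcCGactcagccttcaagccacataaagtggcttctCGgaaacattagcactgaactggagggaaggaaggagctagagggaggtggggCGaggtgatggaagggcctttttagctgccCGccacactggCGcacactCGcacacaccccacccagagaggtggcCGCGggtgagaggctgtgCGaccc
Scn2a, GRCm38.p6 chr2:65620519-65620818, plus strand: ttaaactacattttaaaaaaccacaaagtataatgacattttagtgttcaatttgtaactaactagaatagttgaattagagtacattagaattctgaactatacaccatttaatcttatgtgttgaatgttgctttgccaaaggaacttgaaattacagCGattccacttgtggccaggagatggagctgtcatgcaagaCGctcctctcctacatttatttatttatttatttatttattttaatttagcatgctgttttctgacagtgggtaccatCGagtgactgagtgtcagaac
Scn2a, GRCm38.p6 chr2:65668436-65668735, plus strand: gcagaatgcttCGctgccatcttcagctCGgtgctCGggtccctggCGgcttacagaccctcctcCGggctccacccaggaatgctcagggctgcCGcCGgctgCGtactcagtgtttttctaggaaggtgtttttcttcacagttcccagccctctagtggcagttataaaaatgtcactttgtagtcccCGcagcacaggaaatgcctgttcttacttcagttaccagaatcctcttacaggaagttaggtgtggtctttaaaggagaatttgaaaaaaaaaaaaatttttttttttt

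Markers of other cells also differed in this library. Snap25, a synaptic vesicle fusion gene also active in endocrine cells, stood at 7.32 in WT and 9.20 in AireKO, and the fibroblast gene Dcn at 10.08 and 11.98. In WT, AireKO and Sirt1cKO the summed intensity of 3 fibroblast markers was 1433, 4355 and 2158, a difference carried by Dcn. Col1a1 stood at 8.18, 8.02 and 7.82, and Pdgfra was within background throughout. That of 5 neutrophil markers was 3913, 688 and 1877. That of 3 microfold cell markers was 5935, 2559 and 5400, and that of 5 tuft cell markers 3325, 2695 and 4965. Not every gene followed its sum. The neutrophil gene S100a9 was higher in Sirt1cKO than in WT, at 9.18 and 8.98. The tuft gene Gnat3 was higher in AireKO than in WT, at 9.86 and 9.55, while the other tuft markers were lower. The 7 neuroendocrine markers, Snap25 among them, summed to 2620, 2384 and 2729, with Neurod1 within background throughout. Snap25 was the only 1 of them at 2-fold or more in AireKO against WT. Chga went down from 10.02 in WT to 9.16 in AireKO and Insm1 from 10.14 to 9.74, while Scg2 went up from 6.39 to 6.92. Chgb and Syp were within background in AireKO. The part of these cells in the channel differences was not tested.

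**Figure D2:**
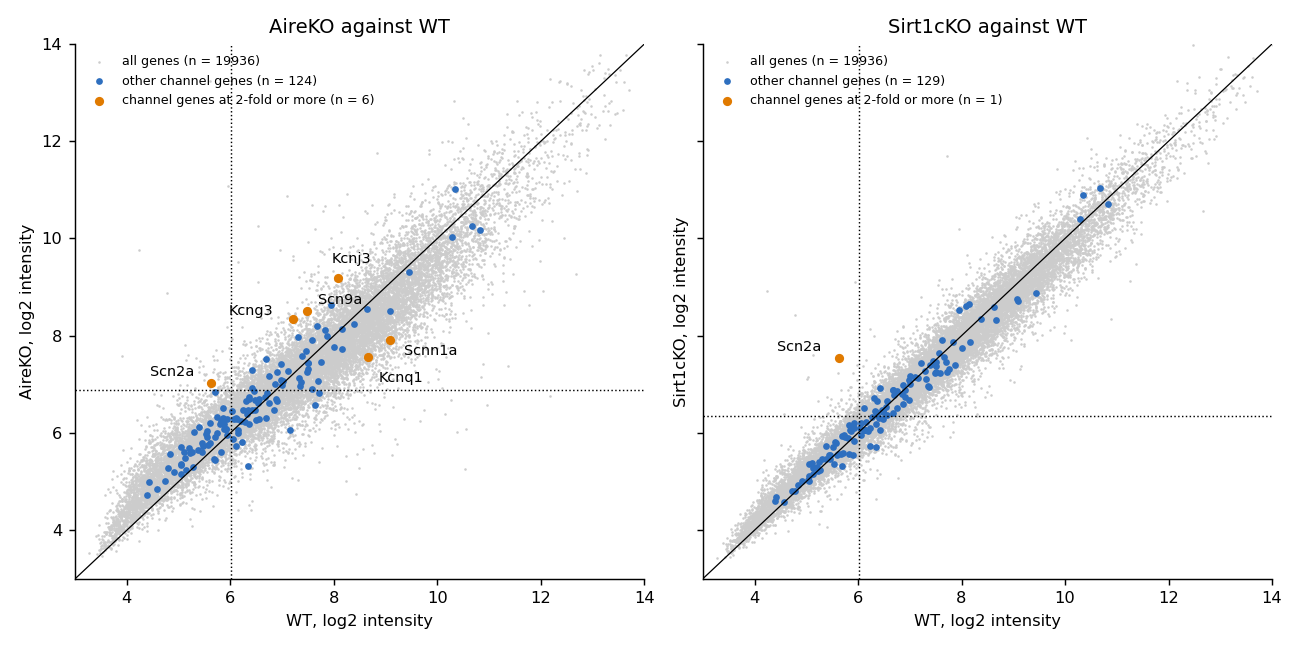
Each grey point is 1 of 19936 genes, with its log2 intensity in WT (horizontal axis) and in AireKO (left, vertical axis) or Sirt1cKO (right, vertical axis); blue points are channel genes, orange points the 6 and 1 channel genes at 2-fold or more, dotted lines the background lines and the solid line equality. The channel genes lie mostly near the line of equality, and most dim genes of AireKO lie above it.

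The whole set did not shift as one in AireKO. Among the 45 members above the line in both libraries, 23 were below WT and 22 above, with a median difference of -0.02, while 11121 genes at large had a median of -0.16. The median of the members became 0.06 after quantile normalization, 0.08 after loess and 0.26 after median centring, so no direction is given for the set. Among the 44 members above the line in all 3 libraries, the size of the AireKO difference was under 0.5 for 29, with a median size of 0.33, and that of the Sirt1cKO difference for 40, with a median size of 0.23. The 47 members within background in both libraries differed by a median of 0.34, and 44 of them were higher in AireKO. Olfr genes differed by 0.70 in the same direction, so dim values as a class were raised in that library.

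The second comparison set the Sirt1cKO library against the WT library, from which it also differed in sex-linked signal. Here 0 members were lower at 2-fold, where 0.948% of all genes were, and 1 of 130 was higher, or 0.769%, where 0.466% of all genes and 0.195% of Olfr genes were. Among genes above the line in 1 or both libraries, 1.3% were lower and 0.637% higher, against 0 and 1 of 83 members. The 1 gene was Scn2a, at least 2.88-fold higher, which fell to a difference of 0.63 with the 99th percentile of Olfr genes as the line. The other members stayed under 1.5-fold. The next were Kcnj13, at 0.58, Scnm1, at 0.55, and Cacna1b, at -0.57. Among the 66 members above the line in both libraries the median difference was -0.03, with 37 below WT and 29 above, against -0.06 for all genes.

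Scn2a rests on few of its probe sets. It had 14 of its own, more than any other member, and the brightest was used. In Sirt1cKO 3 of the 14 were above the line, at 6.41, 7.52 and 7.54, against 1 in WT and 1 in AireKO. Only the brightest reached 2-fold in AireKO, and it and the next did in Sirt1cKO. The 14 had medians of 5.20, 5.86 and 5.85 in WT, AireKO and Sirt1cKO, within background in each library. Before any bound, 12 of the 14 were above WT in AireKO and 14 of 14 in Sirt1cKO, where the median Olfr gene differed from WT by 0.70 and 0.27. The mean of all probe sets was also within background in every library and gave no fold. The 3 probe sets follow each other in the table, and the rest of the 14 stayed at or under 6.60 in all libraries.

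**Figure D3:**
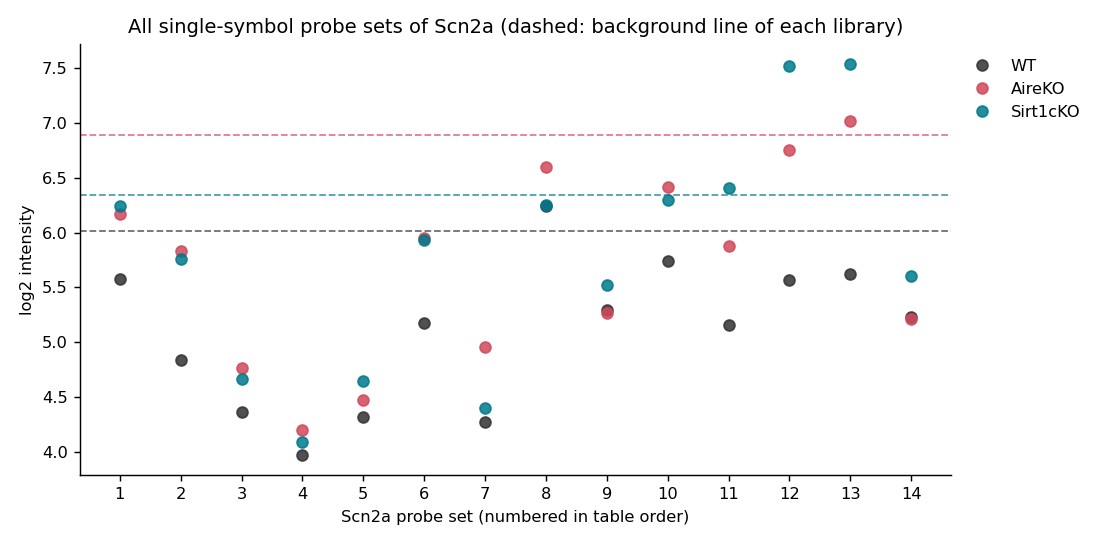
Log2 intensity (vertical axis) of the 14 probe sets of Scn2a (horizontal axis, in table order) in the 3 libraries, 1 point each; dashed lines are the background lines of the libraries. Probe sets 11, 12 and 13 are above the line in Sirt1cKO, and the others are not.

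The third comparison set the knockout libraries against each other. In Sirt1cKO 1 of 130 members was lower than in AireKO, where 0.557% of all genes were, and 1 was higher, where 1.39% were. Among genes above the line in 1 or both libraries the shares were 0.825% and 2.07%, against 1 and 1 of 68 members. Scn9a was 2.14-fold lower in Sirt1cKO, a difference of -1.10. Kcnj16, within background in AireKO, was at least 2.05-fold higher, and fell short of 2-fold after median centring and with the 99th percentile as the line. Kcng3, with a difference of -0.91, was the closest under the threshold, and passed it after quantile normalization and median centring. Scnn1a followed, at 0.85. The 2 comparisons with WT share that library, so their likeness is not read as a result.

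**Figure D4:**
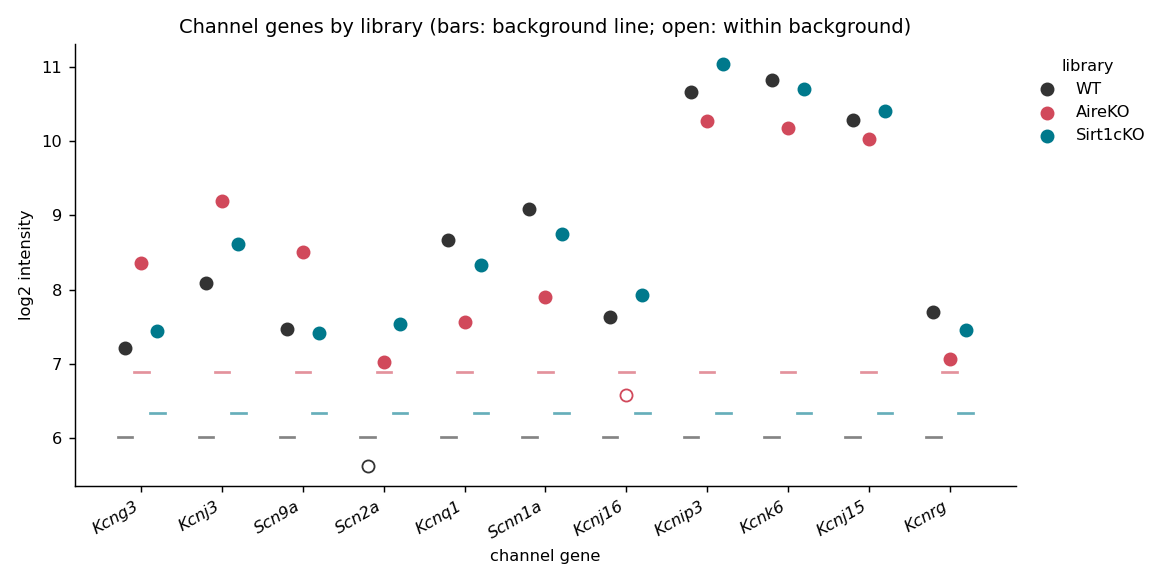
Log2 intensity (vertical axis) of 11 channel genes (horizontal axis) in WT, AireKO and Sirt1cKO, 1 point per library; short bars mark the background line of the library and open points lie within background. AireKO is highest for Kcng3, Kcnj3 and Scn9a and lowest for Kcnq1, Scnn1a, Kcnj16, Kcnip3, Kcnk6, Kcnj15 and Kcnrg.

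Channel-related genes outside the set were counted in the same way. Of 80 genes of other channels and channel partners, 35 were above the line in all 3 libraries, where 55.6% of all genes were. Their calls were not repeated under other scalings. In AireKO 4 were at least 2-fold lower than in WT, Hvcn1, Cnga2, Ano7 and Nedd4l, and 3 were higher, Trpc1, Dpp10 and Stac, where 4.62% of all genes were lower and 1.53% higher. Dpp10 encodes a partner of Kv4 channels and stood at 9.31, 10.48 and 9.36, although its Kv4 pores, Kcnd1, Kcnd2 and Kcnd3, were within background in AireKO. Stac, an adaptor of calcium channels, stood at 7.54, 9.14 and 8.39. In Sirt1cKO 2 were lower than in WT, and 0 were higher, where 0.948% of all genes were lower and 0.466% higher. The lower genes were the voltage-gated proton channel Hvcn1, by 2.06-fold, and Gem, an inhibitor of calcium channels, at 10.38 in WT and 9.37 in Sirt1cKO. Between the knockouts 3 were higher in Sirt1cKO than in AireKO, Trpm5, Ano7 and Nedd4l, where 1.39% of all genes were. The 1 lower gene was Dpp10, where 0.557% of all genes were lower. The tuft cell channel Trpm5 stood at 9.26, 8.32 and 9.73 in WT, AireKO and Sirt1cKO.

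Detection was also compared between neighbouring channel genes. By gene order on GRCm38.p6, 18 pairs of members are adjacent, and 11 of the pairs differed in the number of libraries in which each was above the line, or 61.1%, where 48.4% of 16901 adjacent pairs of all measured genes did. Scn9a, above it in all 3, lies beside Scn1a, above it in none, and beside Scn7a, above it in WT alone. Kcnj15 lies beside Kcnj6, which stood between 5.05 and 5.71. Kcna2 and Kcna3, above the line in all 3 libraries, are followed by Kcna10, above it in none. Cacng1 with Cacng4 and Cacng7 with Cacng8 are pairs of which both genes passed everywhere.

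Promoter sequence was compared across the members by the same windows. They were matched for 98 of 130 members. A window with at least 50% GC and a CpG ratio of observed over expected of at least 0.6 was held by 15 of 31 members above the line in 3 libraries, or 48.4%, by 11 of 18 above it in 2, by 4 of 14 above it in 1, and by 10 of 35 above it in none, or 28.6%. Over all 27025 genes of the table the share was 36.0%. The median ratio, taking each gene's densest window, was 0.59, 0.70, 0.51 and 0.43 in the same order. The ranges overlapped widely, and these figures are descriptive. The GC box GGGCGG, on either strand, was found in a window of 59.2% of members and 38.2% of all genes, and the TATA box TATAAA in 7.14% and 15.7%. The sequence TTCAGCACC, the left part of the site bound by the neuronal repressor REST, was in the windows of 0 members and of 0.433% of all genes.

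**Figure D5:**
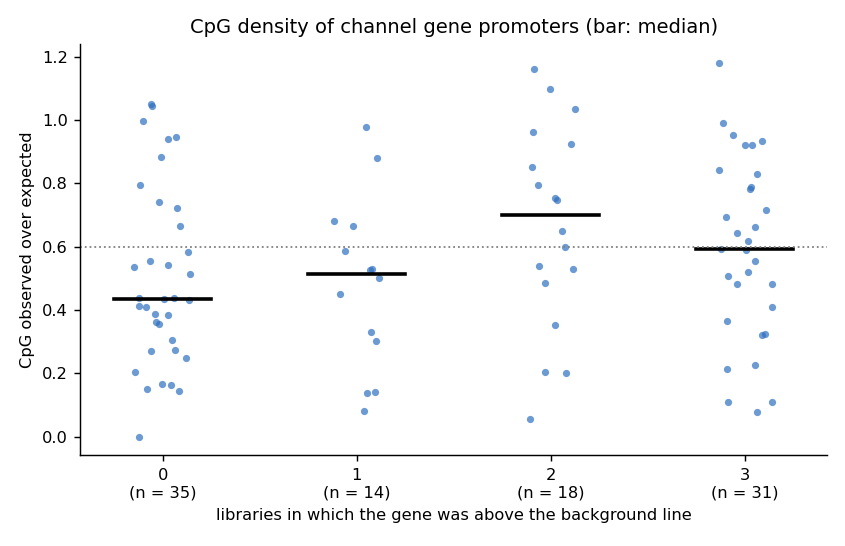
CpG observed over expected (vertical axis) in the densest promoter window of each of 98 channel genes, grouped by the number of libraries in which the gene was above the background line (horizontal axis); points are genes, jittered sideways, bars are medians and the dotted line is 0.6. The medians are 0.43, 0.51, 0.70 and 0.59 from 0 to 3 libraries, and the groups overlap.

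Windows also differed among members above the line in all 3 libraries. As examples, the densest of 3 windows of Kcnip3 has 28 CpG, and the window of the lung autoantigen gene Kcnrg has 1. The CpG are again in capitals. Against the windows printed above for the genes higher in AireKO, this densest window of Kcnip3 has fewer CpG than Kcng3 and more than the others. The Kcnip3 windows not printed have 8 and 4 CpG. Kcnrg has the fewest of all.
Kcnip3, GRCm38.p6 chr2:127482450-127482749, minus strand: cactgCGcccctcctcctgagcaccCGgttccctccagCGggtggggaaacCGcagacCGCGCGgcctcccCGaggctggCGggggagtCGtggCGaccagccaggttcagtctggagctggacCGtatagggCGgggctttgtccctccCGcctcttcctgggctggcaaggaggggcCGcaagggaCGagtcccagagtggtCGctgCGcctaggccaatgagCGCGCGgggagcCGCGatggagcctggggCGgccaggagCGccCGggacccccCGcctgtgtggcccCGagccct
Kcnrg, GRCm38.p6 chr14:61607207-61607506, plus strand: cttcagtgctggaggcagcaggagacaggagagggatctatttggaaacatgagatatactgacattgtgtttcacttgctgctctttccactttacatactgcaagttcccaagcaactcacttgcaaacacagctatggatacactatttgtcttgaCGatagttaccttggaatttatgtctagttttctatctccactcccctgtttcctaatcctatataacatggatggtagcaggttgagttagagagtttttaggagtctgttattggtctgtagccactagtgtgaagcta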

How the data were processed

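RNA of sorted mTEC was measured on 1 Affymetrix Mouse Gene 1-ST array per genotype. The deposited values are linear intensities, made with RMA per the submitters' processing notes; the version of RMA is not given in the sources used here. Their log2 was taken here with no further normalization. Of 34760 probe sets, 21640 list 1 gene symbol, 1321 several and 11799 none, and genes were named from those with 1 symbol, by the brightest probe set. Samples were grouped by title and genotype. A difference was called at 2-fold, with a value within background raised to its library's line, so that a fold is "at least" where 1 side is within background. No depth applies to arrays, and 1 library per group allows no test. The calling steps were tested on simulated copies of the WT library, with nearly equal lines and large changes in bright genes. That test does not cover changes near 2-fold or libraries whose lines differ. Alternatives were quantile normalization, loess (span 0.3), median centring, other probe set rules, other lines and folds, and exchanged labels. Genes were named by rule. The rule took the 20 brightest members above background everywhere, every called member and the 3 brightest of each family. It also took known or reported antibody targets, members next to a threshold, and differing neighbours. Other genes come from lists of tissues, channels and markers. Members and lists were chosen with earlier results of these data known. Members named outside that rule were chosen after their values were seen. Python 3.11.15, pandas 2.3.3, numpy 2.4.6 and statsmodels 0.14.6 were used.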

Additional observations from a re-analysis of the deposited data

Results flagged for a closer look

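Kcnma1, which encodes the BK potassium channel pore, has a second probe set that no comparison above used, and its values were seen before it was chosen for mention. It stood at 5.40 in WT, within background, at 9.41 in AireKO and at 6.06 in Sirt1cKO, within background. Its AireKO signal was thus at least 10.5-fold that of WT, whereas the brighter probe set used above stood at 9.09 in WT and 8.52 in AireKO, lower by a difference of -0.57. The table lists 0 accessions shared by these probe sets, and the cause of the disagreement was not tested.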

How the results depend on the processing

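No paired analysis was possible because each genotype has 1 library. Kcng3, Kcnj3 and Scn9a kept their 2-fold calls in AireKO under each other scaling, line and probe set rule that gave them a value. They lost these calls with exchanged labels and at 3-fold. The AireKO line stayed above the WT line under every scaling, so these alternatives do not bear on that offset. Median centring took away a shift of 0.12 from WT, -0.15 from AireKO and 0.03 from Sirt1cKO. It thus lowered WT and Sirt1cKO values and raised AireKO values, with lines at 5.90, 6.31 and 7.04 in that order. In the lines that follow, counts are members at 2-fold and medians are of members above background in both libraries. For AireKO against WT, lower members numbered 1 after quantile normalization, 0 after loess and 0 after median centring, with medians of 0.064, 0.080 and 0.26, and among all genes 655 lower with 396 higher, 614 with 410, and 449 with 672, against 922 with 306. For Sirt1cKO against WT the median was -0.0085 after loess and 0.058 after centring. For Sirt1cKO against AireKO, 2 members were lower after quantile normalization, and after centring 2 were lower and 0 higher, with a median of -0.27. With the mean of all probe sets, the medians of AireKO and Sirt1cKO against WT were 0.068 and -0.0051, 0 members were higher in Sirt1cKO than in WT and 2 lower than in AireKO; AireKO still had 4 higher, with Kcnma1 in place of Scn2a. Over the 123 genes with 1 probe set, 2 were higher in AireKO, 0 higher in Sirt1cKO than in WT, and 0 lower in Sirt1cKO than in AireKO. With the 90th percentile of Olfr genes as the line, the AireKO median was 0.0715. With the 99th, it was 0.056, that of Sirt1cKO was -0.049, 0 members were higher in Sirt1cKO than in WT or than in AireKO, and 42, 22 and 39 members were above the line in WT, AireKO and Sirt1cKO. With the knockout labels exchanged, AireKO had 0 lower and 1 higher with a median of -0.0285, Sirt1cKO had 2 lower and 4 higher with a median of -0.0155, and the median between knockouts was 0.089; Scn9a then reversed to -0.065 against WT and 1.10 between knockouts, and Kcnj16 to -1.03. Over the 87 voltage-gated channel subunits alone, 1 was lower in AireKO, with a median of 0.068, 0 were higher in Sirt1cKO than in AireKO, with a median of -0.15, and 51 and 44 were above the line in WT and Sirt1cKO. With no background line, 5 members were lower in AireKO than in WT, and between knockouts 2 were lower and 2 higher. At 1.5-fold, 7 were lower and 9 higher in AireKO, and 7 lower and 4 higher between knockouts. At 3-fold, 0 were lower or higher in AireKO, 0 higher in Sirt1cKO and 0 lower or higher between knockouts. Signal near background limits what can be said of most members, since the AireKO line is the highest.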
